A study of Eriocheir sinensis with 6 samples.

Results

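In muscle of Eriocheir sinensis, the Chinese mitten crab, these genes differed widely in measured expression among post-molt crabs but little among pre-molt crabs. They were selected on the measured values themselves and are 14 of the 18729 genes in the deposited expression table, whose values are FPKM (fragment counts corrected for the length of the gene and the size of the library). The rule read 13853 predicted gene models that lie outside 5 chromosomes. It asked for a largest post-molt FPKM of 50 or more that was at least 8 times the smallest post-molt value, and for pre-molt values all above 0 with the largest under 2 times the smallest. Of the 13853 models, 1688 reached 50 FPKM in post-molt muscle, 43 of these had the 8-fold spread, 35 of those were above 0 in every pre-molt library, and 14 were even in pre-molt. A further pair of conditions (a post-molt mean over 0.5 of the pre-molt mean, and a smallest post-molt value under 3 times the largest pre-molt value) removed none of the 14, and lifting the restriction on chromosomes added none. Because the rule read the values of all 6 libraries, the spread and the levels given below are a description and carry no test.

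Muscle was taken from healthy juvenile crabs that weighed 8.41 ± 1.47 g and lived at 20 °C, either in post-molt, the stage after the old shell is shed, or in pre-molt, the stage before it. Each stage had 3 libraries. The labels do not say which muscle was taken. The study's methods, in a passage on crabs caught during the molt itself, name walking legs and male crabs. By the same methods every sample came from its own crab. With no repeat library from any crab, spread between animals cannot be told apart from differences in sampling, library preparation or sequencing. The labels name no treatment, and stage was the only labelled difference between the groups. The labels give no time since the shedding of the shell within the post-molt group and no sex, litter or date for any crab, so those cannot be set against the values. The study states that the crabs of all stages came from the same batch.

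Crustaceans grow by shedding their exoskeleton in a cycle that ecdysteroid hormones drive and that molt-inhibiting hormone holds back. Muscle is remodelled with it. In decapods claw muscle shrinks before the shed, which lets the limb be pulled through narrow joints, and muscle protein is rebuilt after it, while the new shell hardens.

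The 14 genes carry prediction IDs only. None was paired with a gene name in the deposited tables, and 0 of the 14 IDs were found in the RefSeq gene table. That search was by ID only and does not show that the genes lack a counterpart there. No function is therefore given for any of them, and marker genes were not used to check the tissue. The IDs are written below without their shared start, evm.TU, and they name the chromosome (CM) or the unplaced scaffold (JACDRO) and the gene's order number on it. The 8 supplementary lists give genes that changed in expression and in chromatin accessibility between successive stages. They hold 878 of the 18729 genes of the table and 0 of the 14, and nothing is drawn from that 0. No list sets post-molt directly against pre-molt. Those lists rest in part on these same libraries. The authors also deposited a direct comparison of post-molt with pre-molt. It holds 1684 of the 18729 genes and 3 of the 14, and nothing is drawn from that count either.

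Whole fragments were recovered from the deposited values, 4168743 to 5117141 of them in a post-molt library and 5810059 to 6768297 in a pre-molt one. The deposited FPKM summed to 2772125 to 3753646 per post-molt library and to 1115974 to 1463554 per pre-molt library. A level of 50 FPKM was reached by 1688 of the 13853 models in post-molt and by 1329 in pre-molt. For a gene of 1000 bases, 1 fragment was worth 0.568, 0.837 and 0.856 FPKM in post-molt replicates 1, 2 and 3 and 0.202 to 0.272 FPKM in pre-molt. Every pair of libraries differed by more than sampling noise. Over all genes the first principal component (60.2% of the variance) separated the stages, and the second (17.4%) set post-molt replicate 3, at -87.5, apart from post-molt replicates 1 and 2, at 36.9 and 55.8.

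Among the 14 genes the largest post-molt value was 8.56 to 268 times the smallest, with a median of 24.4, where a value of 0 was replaced by that of 3 fragments. The pre-molt ratio of the same genes was 1.28 to 1.96, with a median of 1.45. On the log2 scale, the median SD between crabs was 2.39 in post-molt and 0.28 in pre-molt. In bulk tissue, fewer cells of a type that expresses a gene and less RNA per cell cannot be told apart. Set against the pre-molt range of the same gene, the lowest post-molt crab lay below it for 12 genes, within it for 1 and above it for 1. The 12 include JACDRO010000236.1.1, whose listed 0 was used here. The highest crab lay above the pre-molt range for 13 genes and within it for 1. The middle crab lay above the pre-molt range for 10 genes, within it for 2 and below it for 2. In 11 genes the lowest crab lay below and the highest above the pre-molt range, but in only 3 of these, CM024111.1.285, JACDRO010000236.1.6 and CM024102.1.302, did the 95% counting interval of the lowest crab also lie below it.

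**Figure D1:**
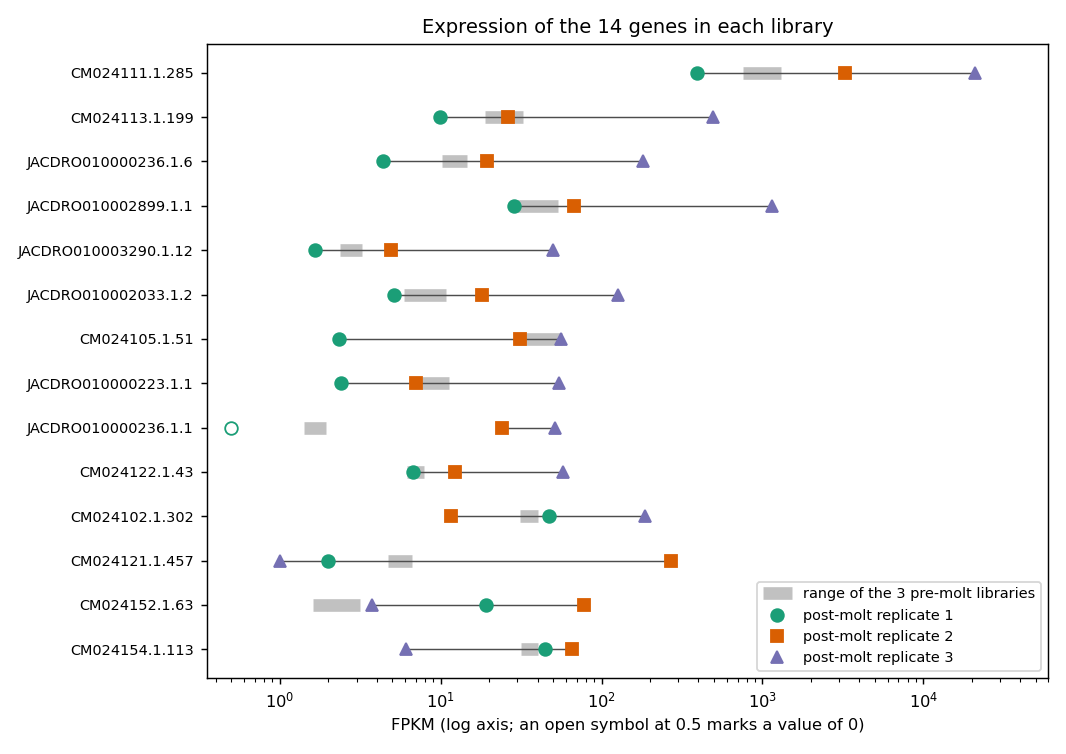
FPKM of the 14 genes on a log axis, with 1 symbol for each post-molt library and a grey bar over the range of the 3 pre-molt libraries. The pre-molt bars are short, while the post-molt symbols lie 8.56-fold to 268-fold apart, with post-molt replicate 3 highest in 11 genes and replicate 2 in 3.

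Counting error bounds these ratios unequally. For 6 of the 14 genes the 95% counting interval of the ratio (exact Clopper-Pearson, on fragments) lay above 8, for 11 its lower bound was at least 4, and for 13 at least 2. The lowest post-molt library held fewer than 10 fragments for 11 of the 14 genes, with 1 to 3 fragments for 6 and 0 for 1. At the other end, the highest library held 100 fragments or more for 6 genes and fewer than 20 for 4. These intervals cover counting error only, since the fragments carry no molecular identifiers. Pre-molt values share this limit unequally. Their fragments in replicates 1, 2 and 3 were 2861, 2063 and 1814 for CM024111.1.285, but 5, 4 and 4 for JACDRO010003290.1.12. JACDRO010000236.1.1 had 2, 2 and 3, with counting intervals of 0.17 to 5.09, 0.21 to 6.23 and 0.40 to 5.62 FPKM. At such counts a pre-molt ratio under 2 does not establish even levels.

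**Figure D2:**
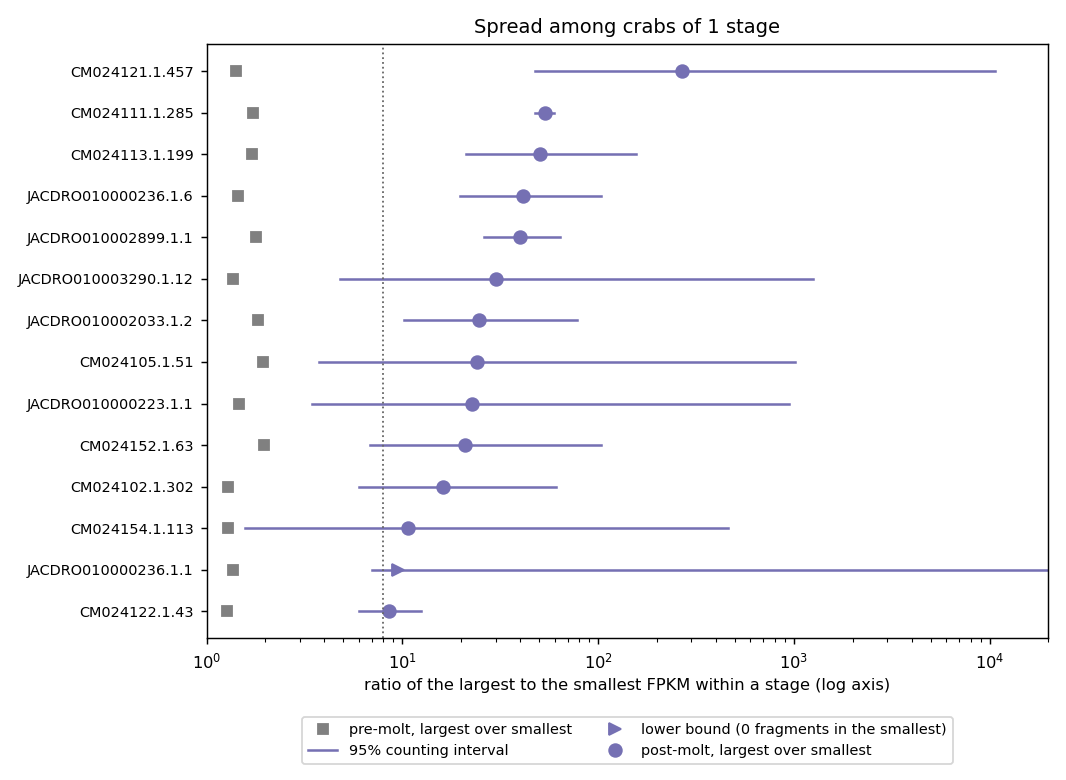
Ratio of the largest to the smallest FPKM within a stage, on a log axis, with the 95% counting interval of the post-molt ratio as a line and the rule's limit of 8 dotted. Pre-molt squares lie between 1.28 and 1.96, and the post-molt intervals of 6 genes lie wholly to the right of 8; the line of JACDRO010000236.1.1 runs off the axis because its lowest library held 0 fragments.

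Which crab was high was shared by most of the genes. Post-molt replicate 3 was highest for 11 of the 14 (78.6%), replicate 2 for 3, and replicate 1 for 0. Replicate 1 was lowest for 10, replicate 3 for 3 and replicate 2 for 1. Among all 1688 models that reached 50 FPKM, replicate 3 was highest for 534 (31.6%), replicate 1 for 708 (41.9%) and replicate 2 for 446 (26.4%). Of the 29 models that had the 8-fold post-molt spread and were left out for their pre-molt values, 20 were highest in replicate 2 (69.0%), 6 in replicate 3 and 3 in replicate 1. The full order, replicate 3 above 2 above 1, was found in 10 of the 14 genes (71.4%), in 341 of the 1688 (20.2%) and in 5 of the 29 (17.2%). Post-molt replicate 3 was also the library that stood apart over all genes, and the part of this in the pattern was not tested. Without it, the median ratio of the 14 genes was 3.80 and 3 of them (CM024121.1.457, CM024105.1.51 and CM024111.1.285) still had an 8-fold spread. Without replicate 1 the median was 9.79 and 8 genes kept that spread, and without replicate 2 the median was 23.3 and 10 kept it.

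The shape of the spread was described by where the middle crab lay between the lowest and the highest on the log2 scale. In 5 genes it lay in the lower part of that range, up to 0.33 of it, so that 1 library stood high above the others; this library was replicate 3 in 4 genes and replicate 2 in 1. In 2 genes it lay above 0.67 of the range, so that 1 library stood low, which was replicate 1 in CM024105.1.51 and replicate 3 in CM024154.1.113. In the other 7 the levels were graded, with replicate 3 highest in 6 and replicate 2 in 1.

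Of the 10 genes highest in replicate 3 and lowest in replicate 1, CM024111.1.285 was by far the most abundant. It had 392, 3241 and 20880 FPKM in post-molt replicates 1, 2 and 3, from 335, 1882 and 11858 fragments, and 1305, 1154 and 754 FPKM in pre-molt. Its 3 post-molt crabs lay at well separated levels, replicate 1 below every pre-molt crab and the other replicates above them all. The ratio of 53.3 had a counting interval of 47.8 to 59.6. In replicate 3 this gene ranked 53 among all listed genes and held 0.556% of the summed FPKM, whereas by its pre-molt mean of 1071 ± 285 FPKM (SD, n = 3) it ranked 173.

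CM024113.1.199 and JACDRO010002899.1.1 stood high in replicate 3 alone. CM024113.1.199 had 9.87, 26.2 and 496 FPKM in post-molt and 30.8, 18.9 and 32.3 FPKM in pre-molt. Its post-molt replicate 2 fell among the pre-molt crabs, replicate 1 below them, and replicate 3 was far above all other libraries, with a ratio of 50.3 (counting interval 21.1 to 157). JACDRO010002899.1.1 had 28.7, 67.3 and 1143 FPKM in post-molt and 53.5, 30.0 and 39.0 FPKM in pre-molt. Here too replicate 1 lay at the foot of the pre-molt range and replicate 3 alone was far from it, with 581 fragments against 22 and 35, and the ratio was 39.8 (26.0 to 64.0).

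JACDRO010000236.1.6 was graded, with 4.38, 19.3 and 181 FPKM in post-molt and 11.0, 10.2 and 14.7 FPKM in pre-molt. Its replicate 1 lay below the pre-molt crabs and the other replicates above them, and the ratio was 41.3 (19.7 to 104). The other gene from that scaffold, JACDRO010000236.1.1, was listed at 0 in replicate 1 and had 23.9 and 51.6 FPKM in replicates 2 and 3, with 1.41, 1.73 and 1.92 FPKM in pre-molt. Its post-molt replicates 2 and 3 were far above pre-molt, from 9 and 19 fragments. The 95% counting interval of replicate 1, with 0 fragments, ran up to 6.655 FPKM, which is above the pre-molt crabs. Against a floor of 5.41 FPKM (3 fragments) the largest value was 9.54-fold higher. With the counting error of both libraries the lower bound of the ratio was 7.03.

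Next came 3 genes on scaffolds of their own that had nearly the same profile. JACDRO010002033.1.2 had 5.12, 18.1 and 126 FPKM in post-molt and 10.8, 5.88 and 6.19 FPKM in pre-molt. JACDRO010003290.1.12 had 1.66, 4.89 and 50.0 FPKM in post-molt and 3.24, 3.18 and 2.36 FPKM in pre-molt. JACDRO010000223.1.1 had 2.40, 7.06 and 54.2 FPKM in post-molt and 11.2, 10.3 and 7.67 FPKM in pre-molt. In all 3 genes replicate 1 lay below every pre-molt crab and replicate 3 well above them, and only in JACDRO010000223.1.1 was replicate 2 also below. The ratios were 24.7 (10.2 to 78.1), 30.1 (4.82 to 1248) and 22.6 (3.48 to 951). The wide intervals follow the fragments, which were 5, 12 and 82 for JACDRO010002033.1.2, but 1, 2 and 20 for JACDRO010003290.1.12 and 1, 2 and 15 for JACDRO010000223.1.1.

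CM024122.1.43, the longest of the 14 at 3200 bases, showed the smallest measured ratio, 8.56 (6.04 to 12.4). It had 6.75, 12.3 and 57.8 FPKM in post-molt, from 38, 47 and 216 fragments, and 7.90, 7.39 and 6.19 FPKM in pre-molt. Its replicate 1 lay within the pre-molt range and replicate 3 alone stood far above it. CM024105.1.51 went the other way, with 2.34, 31.0 and 56.3 FPKM in post-molt and 31.0, 29.1 and 56.5 FPKM in pre-molt. Replicates 2 and 3 matched the pre-molt crabs in level, and only replicate 1 was low, with 1 fragment where the other post-molt replicates had 9 and 16, so its ratio of 24.1 had an interval of 3.74 to 1010.

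The 4 remaining genes had other orders. CM024102.1.302 had 47.4, 11.6 and 187 FPKM in post-molt and 40.0, 31.1 and 35.8 FPKM in pre-molt. It was the only gene of the 14 that was lowest in replicate 2, which lay below the pre-molt crabs while the other replicates lay above them. The ratio was 16.1 (5.99 to 60.9), from 24, 4 and 63 fragments.

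CM024121.1.457 had the largest ratio of all, with 2.001, 269 and 1.00 FPKM in post-molt and 4.68, 5.10 and 6.64 FPKM in pre-molt. Replicate 2 alone was high, at 49.2 times the pre-molt mean, and replicates 1 and 3 lay below every pre-molt crab. The ratio of 268 rested on 274 fragments against 3 and 1, with a counting interval of 47.7 to 10623. CM024152.1.63 had 19.1, 78.1 and 3.74 FPKM in post-molt and 1.62, 3.17 and 2.94 FPKM in pre-molt. Replicate 2 was again highest and replicate 3 lowest, yet all post-molt crabs lay above all pre-molt crabs, which held for no other gene of the 14. Its ratio was 20.9 (6.83 to 104), from 23, 64 and 3 fragments.

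CM024154.1.113 had 44.3, 65.3 and 6.07 FPKM in post-molt and 31.5, 40.5 and 32.9 FPKM in pre-molt. Its replicates 1 and 2 were close to each other above the pre-molt range, and only replicate 3 was low. This gene is the shortest of the 14, at 141 bases, and its levels rest on 11, 11 and 1 fragments. The ratio of 10.8 had an interval of 1.56 to 463, the only one of the 14 that reached below 2.

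**Figure D3:**
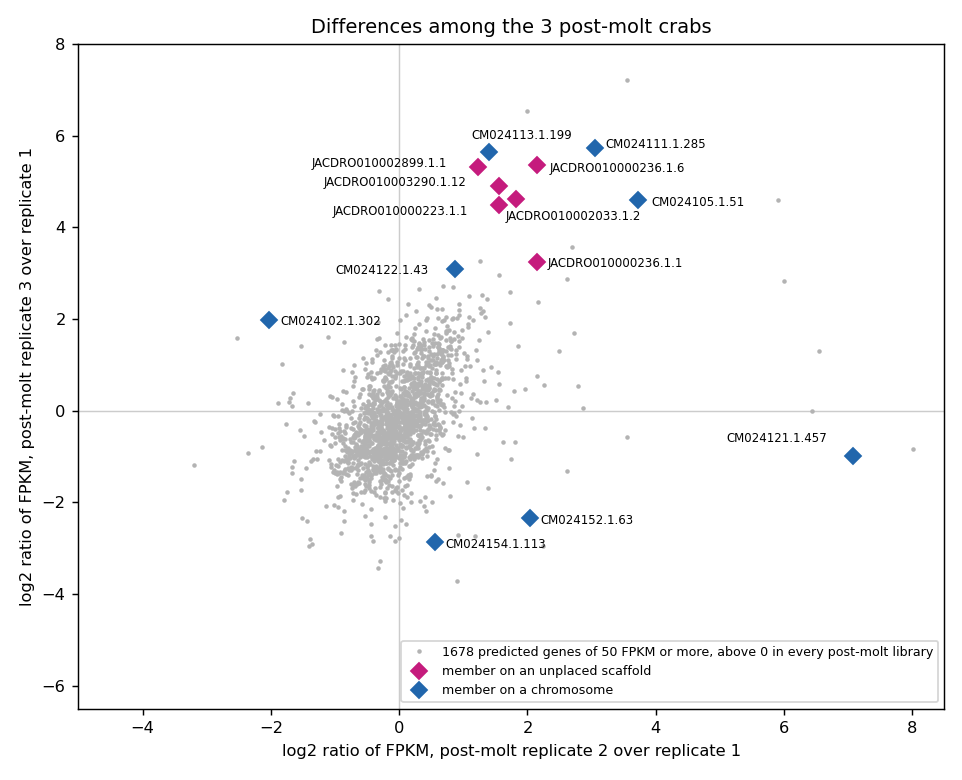
Log2 ratios of FPKM between post-molt crabs, replicate 2 over replicate 1 on the horizontal axis and replicate 3 over replicate 1 on the vertical, for 1678 models that reached 50 FPKM and were above 0 in every post-molt library (grey) and for the 14 genes (diamonds). All 6 genes on unplaced scaffolds lie at the upper right, where replicate 3 is highest and replicate 1 lowest; JACDRO010000236.1.1 is placed with the value of 3 fragments for its 0.

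To find genes that moved together, the log2 FPKM of each gene were centred on its mean over the 3 post-molt crabs, and a pair was counted where its centred values lay within 0.5 of each other in every library. This held for 9 pairs among 7 of the 14 genes, in sets that overlap, and the other 7 genes had no such partner. The largest set held 4 genes, JACDRO010000236.1.6, JACDRO010003290.1.12, JACDRO010002033.1.2 and JACDRO010000223.1.1, all within 0.49 of each other and all on unplaced scaffolds. Within it the last 3 were closer, at 0.28 or less, with a mean profile of -2.11, -0.46 and 2.57 in replicates 1, 2 and 3, and JACDRO010002033.1.2 and JACDRO010000223.1.1 were the closest pair of all, at 0.13. CM024113.1.199 and JACDRO010002899.1.1 formed a pair at 0.17. The remaining pairs tied these sets together, with JACDRO010002899.1.1 and JACDRO010003290.1.12 at 0.38, and CM024111.1.285 and JACDRO010000236.1.6 at 0.48. Where a shared shape was asked for as well, JACDRO010003290.1.12, with 1 library high, dropped out of the set of 4, whose other genes were graded. With 3 crabs a profile has few degrees of freedom, and for the genes with 1 or 2 fragments in their low libraries the counting intervals given above are far wider than the limit of 0.5.

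The mean profile of the 3 closer genes was then compared with all 13191 listed genes above 0 in every post-molt library. Outside the 14, 21 genes (0.159%) lay within 0.5 of it in each library, 18 of which were gene models outside the predicted set that the rule read. Of the 21, 8 reached 50 FPKM and 7 held fewer than 20 fragments in their highest library. Many of the 21 held only 1 or 2 fragments in post-molt replicate 1. Several had the same fragments, 1, 2 and 12 in post-molt replicates 1, 2 and 3, and so the same distance of 0.306. JACDRO010003290.1.12 and JACDRO010000223.1.1, which enter the mean profile, themselves held 1 and 2 fragments in replicates 1 and 2. At such counts the counting error is far wider than the limit of 0.5. The most abundant, a model outside the predicted set, had 34.3, 94.5 and 588 FPKM in post-molt and 63.4, 28.5 and 33.4 FPKM in pre-molt. It too was highest in replicate 3 and lay within the pre-molt range in replicate 1.

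Position on the assembly was not used by the rule beyond the 5 chromosomes. Unplaced scaffolds held a larger share of the 14 genes than of the models read. On unplaced scaffolds lay 6 of the 14 (42.9%), spread over 5 scaffolds, against 195 of the 13853 models read (1.41%), 19 of the 1688 that reached 50 FPKM (1.13%) and 1 of the 29 with a wide post-molt spread left out for their pre-molt values (3.45%). The other 8 lay on 8 different chromosomes. All 6 scaffold genes had the order replicate 3 above 2 above 1, as had 4 of the 8 chromosomal ones.

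Other scaffold models were high in the same crab in part. Of the 13 other scaffold models that reached 50 FPKM, replicate 3 was highest in 8 (61.5%), and 3 had the full order. Over all 189 other scaffold models listed, replicate 3 was highest in 85 (45.0%), against 35.3% over the 13853 models read. JACDRO010000346.1.4, chosen after its values were seen, had 2.85, 11.4 and 263 FPKM in post-molt and 0.317, 1.36 and 0.289 FPKM in pre-molt. It had the same order of crabs and was left out for its uneven pre-molt values. JACDRO010003252.1.21 had 7.21, 21.2 and 56.5 FPKM in post-molt and, at 7.83, missed the 8-fold limit.

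The gene models outside the predicted set were read by position as well. In the authors' comparison table, 253 such models carry a sequence name, and their numbers ran through 76 sequences in 76 unbroken runs, with all 15 on unplaced scaffolds numbered after all 238 on chromosomes. By that numbering, 11 of the 18 models that followed the mean profile of the 3 closer genes (61.1%) lay past the last chromosomal number, against 319 of the 3451 listed models (9.24%). Most of these 11 had numbers close to each other. Since models of near number can lie on the same sequence, the 11 need not be separate cases, and nothing is drawn from the difference in share.

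**Figure D4:**
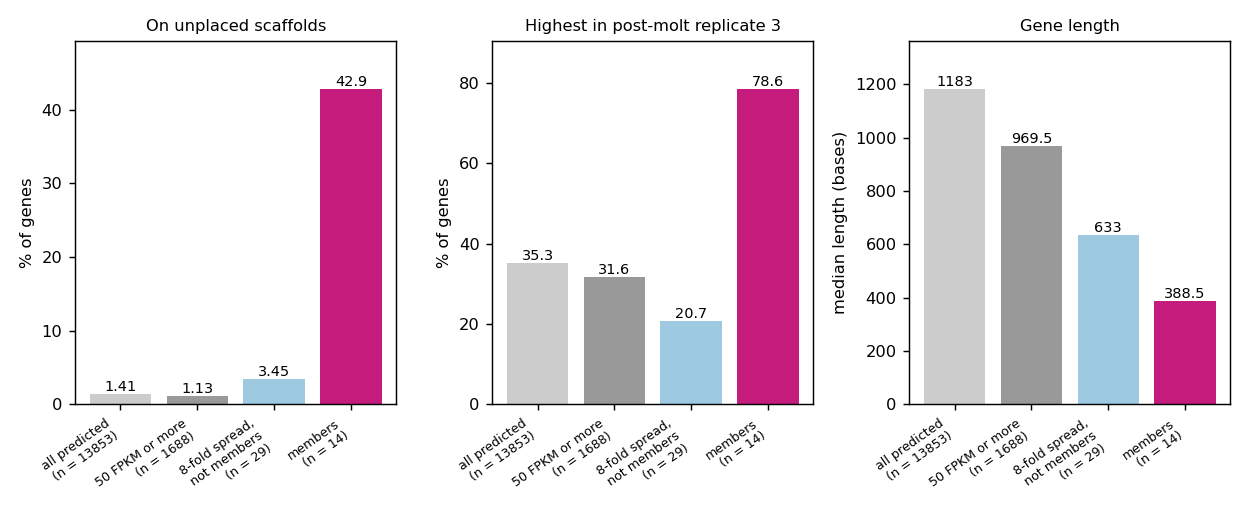
Share of genes on unplaced scaffolds (left), share highest in post-molt replicate 3 (middle) and median gene length in bases (right) for the 13853 models read, the 1688 that reached 50 FPKM, the 29 with an 8-fold post-molt spread left out for their pre-molt values, and the 14 genes. The 14 genes have the largest scaffold share (42.9%), the largest share highest in replicate 3 (78.6%) and the smallest median length (388.5 bases).

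The 14 genes were short. Their length, recovered from the fragments and given in the authors' table for 3 of them, had a median of 388.5 bases and ran from 141 to 3200. Under 600 bases were 10 of the 14 (71.4%), against 31.3% of the 1688 models that reached 50 FPKM and 25.8% of all 13853. Of the 29 with a wide spread left out for their pre-molt values, 48.3% were under 600 bases, with a median of 633. At equal FPKM a shorter gene rests on fewer fragments. The part of length in the spread was not tested.

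Neighbouring genes were read for the same spread. Within 5 order numbers of the 14 genes lay 57 listed genes, counted once for each of the 14 they neighbour. The same highest crab was found in 23 of the 57. Over the 13853 models read, each post-molt crab was highest in 29.4% to 35.3%. An 8-fold post-molt spread with no crab at 0 was found in 3, which include JACDRO010000236.1.6, itself among the 14. Neighbours with a crab at 0 could not enter the 3, and the share over all models was not taken. The only neighbours that are both among the 14 were JACDRO010000236.1.1 and JACDRO010000236.1.6, and the models between them, JACDRO010000236.1.3 at 1.29, 0.757 and 1.16 FPKM and JACDRO010000236.1.4 at 2.27, 0 and 0 FPKM in post-molt, were low in every crab. For 4 of the 14, no other gene of their scaffold was listed.

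On chromosomes, 2 neighbours also had an 8-fold post-molt spread, both chosen after their values were seen. CM024154.1.115, near CM024154.1.113, had 17.1, 25.2 and 3.03 FPKM in post-molt, from 17, 17 and 2 fragments, and was again low in replicate 3 alone. Between them CM024154.1.114 had 21.6, 3.53 and 0 FPKM, lowest in the same crab but with replicate 2 low as well. CM024111.1.289, near CM024111.1.285, had 11.3, 3.46 and 43.9 FPKM, highest in replicate 3 like its neighbour, but lowest in replicate 2.

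Between the stages, limma on log2(FPKM + 1) with Benjamini-Hochberg adjustment over 17465 genes called 0 of the 14, while 7.54% of all genes were called (5.93% higher and 1.60% lower in post-molt). The rule read these values, so nothing is drawn from that count. At an unadjusted p under 0.05 there was 1 of the 14, CM024152.1.63, with a log2 fold change of 2.48 ± 0.86 (SE) and a limma adjusted p of 0.14. The log2 fold changes of the 14 ran from -1.06 to 2.48 with a median of 1.12, against -0.09 over all genes, and 12 were above 0. Their median SE was 0.92, against 0.40 over all genes. On the recovered fragments edgeR called 10 of the 14, where it called 11.3% of all genes, and DESeq2 called 3, where it called 10.8%. The stages did not overlap for 1 of the 14 (7.14%), CM024152.1.63, where they did not overlap for 26.7% of all genes. For CM024152.1.63 the gap between the stages lay within the counting error of post-molt replicate 3.

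The sign of some of these differences depended on the scale and on single crabs. With FPKM rescaled to a common sum the all-gene median moved from -0.09 to -0.78 and the number of the 14 above 0 from 12 to 7, with a median of 0.05. On that scale 1 of the 14 was called, CM024105.1.51, lower in post-molt (log2 fold change -2.14, limma adjusted p 0.032). Without post-molt replicate 3, 9 of the 14 were above 0, the median was 0.13, and CM024152.1.63 was called higher (3.51, limma adjusted p 0.017). Without post-molt replicate 1, 13 of the 14 were above 0, the median was 2.11, 7 had an unadjusted p under 0.05, and JACDRO010000236.1.1 was called higher (3.76, limma adjusted p 0.0040). Without post-molt replicate 2 or without pre-molt replicate 3, 11 were above 0; CM024121.1.457 went from 0.87 to -1.39 in the former and JACDRO010000223.1.1 from 0.11 to -0.04 in the latter.

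With the stages exchanged the rule kept 1 gene, CM024111.1.8, which had 26.6, 213 and 80.9 FPKM in pre-molt and 43.8, 50.7 and 31.6 FPKM in post-molt. It was high in pre-molt replicate 2, while its post-molt crabs were even. At a common FPKM sum of the mean size, the rule kept 8 genes, 6 of them among the 14, and 3 with the stages exchanged. An 8-fold spread was found in 43 of the 1688 models that reached 50 FPKM in post-molt and in 8 of the 1329 that reached it in pre-molt. The same FPKM rested on fewer fragments in post-molt. For a gene of 1000 bases, 1 fragment was worth 0.568 to 0.856 FPKM there and 0.202 to 0.272 FPKM in pre-molt. The 43 models held a median of 3 fragments in their lowest post-molt library. The part of counting error in these differences between stages was not tested.

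At the limits of the rule, the genes just inside the 50 FPKM limit were JACDRO010003290.1.12 at 50.0 and JACDRO010000236.1.1 at 51.6, and just outside were CM024154.1.325 at 48.7 and CM024148.1.9 at 46.8. For the post-molt ratio, CM024122.1.43 at 8.56 and CM024154.1.113 at 10.8 lay inside and JACDRO010003252.1.21 at 7.83 and CM024139.1.291 at 7.53 outside. For the pre-molt ratio, CM024152.1.63 at 1.96 and CM024105.1.51 at 1.94 lay inside and CM024099.1.51 at 2.28 and CM024148.1.337 at 2.56 outside. The values thus continue across the limits.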

How the data were processed

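Muscle RNA of 3 post-molt and 3 pre-molt crabs was sequenced with paired reads; titles gave each sample's stage and replicate number. As the submitters' notes and the study's methods give it, HISAT2 2.0.5 aligned the reads and featureCounts 1.5.0-p3 counted fragments with a unique alignment. For the strand setting the sources used here give nothing. Deposited by the authors were FPKM per library, in columns whose tissue prefix differs from that of the titles, and a comparison table with a normalized signal (fragment counts over a size factor). The columns of the same stage letter and number matched exactly over the genes of the comparison table once gene length and 1 factor for each library were allowed for. The authors' own log2 fold changes and p-values were not used.

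Whole fragments were recovered from the size-factor steps and the smallest whole gene length: 100% of values came out whole within 0.001, and 98.6% of 1684 known lengths were recovered exactly. The FPKM were not divided by the library totals: they imply a library size of 0.280 to 0.344 of the post-molt totals and 0.633 to 0.819 of the pre-molt totals, and the sources used here do not give the origin of this scaling.

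limma 3.58.1 in R 4.3.3, with an intensity trend and stage as the only term, was run on log2(FPKM + 1), leaving out genes whose mean FPKM was under 0.5. A call needed an adjusted p (Benjamini-Hochberg) of at most 0.05 and a log2 fold change of at least 1 either way. Fold changes on this scale understate the change of low genes. edgeR 4.0.16 and DESeq2 1.42.0 on the fragments, other pseudocounts, filters and scalings, a replicate block, a variance per stage and leaving out each library were alternatives. The limma fit and the recovery of fragments were tested on simulated data. All 14 genes are named. The genes, lists and rules were chosen with earlier results of these data known.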

Additional observations from a re-analysis of the deposited data

How the results depend on the processing

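Under the settings tried, the number of genes that the rule kept went from 14 to 5 at a common FPKM sum (3 of the 14 among them), 8 at a common sum of the mean size (6 shared, chosen after seeing the data), 63 with a 4-fold spread, 33 from 20 FPKM and 7 from 100 FPKM. It was 12 (12 shared) with median-of-ratios factors or a 16-fold spread. The number of the 14 called between stages went from 0 to 1 at a common sum, 10 with edgeR and 3 with DESeq2, which gave 3 of the 14 no adjusted p, and was 0 to 1 without single libraries. Over all genes, 1316 were called, 6490 at a common sum, and 763 to 1313 without single libraries. The median post-molt ratio was 24.4, and 3.80 to 23.3 without single post-molt libraries. With limits at 0.25 and 0.75 of the range, 3 genes rather than 5 had 1 library high. When only directly adjacent genes counted as neighbours, 0 of the 14 had another of them nearby. The counts by highest library were the same under the scalings tried, and among the 11 genes with a counting bound of at least 4 replicate 3 was highest in 9 (both checks on fragments were chosen after seeing the data). Replicate numbers did not pair the crabs (correlations of same-numbered libraries -0.03, -0.03 and -0.05); with a replicate block 1003 genes were called, 976 of them also without it, and 0 of the 14. Of 210 refitted log2 fold changes of the 14, 16 changed side of the threshold and 17 turned sign without passing it. Where values moved, the cause was not tested. Depth limits the low libraries most, since 11 of the 14 rest there on fewer than 10 fragments.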

Other observations

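Applied to the gene models outside the predicted set, the same conditions kept 24 models. Post-molt replicate 3 was highest in 23 of them and replicate 2 in 1, and 22 had the order replicate 3 above 2 above 1. By their numbers, 9 of the 24 (37.5%) lay past the last model placed on a chromosome in the authors' table, against 9.24% of all 3451 listed models of this kind. Models of near number can lie on the same sequence. These models were read after the 14 genes had been described and carry no test.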
